A study of Mus musculus with 17 samples.

Results

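*Cr2* and 4 genes that act beside it in the complement system and in the B cell coreceptor, *Cd55*, *Cr1l*, *Cd59a* and *Cd81*, were followed in mouse germinal centre (GC) B cells. They are 5 of the 21848 genes in the expression matrices, and all 5 passed the filter on low counts in the time course. The members were chosen for their roles, and selected on the measured difference at 48 h after treatment with anti-DEC-OVA, where *Cr2* and *Cd55* were among the largest falls, so their values at 48 h are given below as a description, with no test. Values of *Cd81*, *Cr1l* and *Cd59a* at 48 h came from the same contrast and are treated in the same way.

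Complement is a cascade of plasma proteins that ends in the deposition of fragments of C3 on antigens and cells and in the assembly of a pore, the membrane attack complex. *Cr2* encodes complement receptor 2 and, by alternative splicing in the mouse, complement receptor 1. On B cells, CR2 binds C3d on opsonized antigen and forms a coreceptor that includes the tetraspanin CD81, which lowers the threshold of B cell receptor signalling, and follicular dendritic cells use the same receptors to hold antigen in the GC. CD55 and Crry, the product of *Cr1l*, restrain the C3 convertases on the cell surface, and CD59a blocks the membrane attack complex.

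The cells were 10X Genomics 5′ libraries of GC B cells sorted from lymph nodes, and the cells of each mouse carried 1 hashtag antibody or, in the time course, a pair of them. In the time course, CD45.1 hosts that had been primed with OVA received B cells with the B1-8hi heavy chain (specific for NP) and were immunized with NP-OVA. Anti-DEC-OVA, which delivers OVA to cells carrying DEC-205 (encoded by *Ly75*), was given on day 7, and untreated mice had the same transfer and immunization without it. The time course covered 39 mice in 2 experiments: untreated mice at 0 h on day 7 (9 mice), untreated and treated mice at 48 h on day 9 (6 and 9 mice), and untreated and treated mice at 72 h on day 10 (8 and 7 mice).

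In the design of the study, the transferred cells were a mixture in which a minority expressed DEC-205 together with a doxycycline-sensitive H2B-mCherry transgene (*Col1a1* tetO-H2B-mCherry with Vav-tTA), and the others were *Ly75*-/-. The cells of the time course are described by the study as DEC-205+. A second set held 7 treated mice whose sorted GC B cells carried the *Rosa26* DHB-tdTomato reporter of CDK2 activity. The reporter stood alone or together with H2B-GFP, not stated for each mouse. In the study, reporter mice were crossed to the B1-8hi receptor, and for imaging a minority of B1-8hi reporter cells was transferred into the treated mice. Image-based sorting at 72 h divided the reporter cells into those with a cytoplasmic reporter (CDK2hi) and those with a nuclear reporter (CDK2low). The heavy and light chains of B1-8hi cells were found together in 4691 of 7448 CDK2hi and 2719 of 4385 CDK2low cells. In the time course, these chains were found together in 9208 of 13625 kept cells of the larger experiment and 4369 of 10073 of the smaller. The GCs can hold host cells beside transferred ones, and cells were not filtered on their receptor here. A further set, the first experiment, held 3 untreated mice at day 7, 3 untreated mice at day 10 and 3 treated mice at day 10, and its treated cells had been sorted as mCherry-low. Treatment and this gate cannot be told apart there. Young mice of both sexes were used, without an age or sex for each mouse.

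The larger experiment gave 13625 cells from 25 mice and the smaller one 10073 cells from 14 mice, each on 1 library. Between 292 and 1045 cells per mouse were kept, with 1984430 to 13373200 unique molecular identifiers (UMIs, each a counted RNA molecule) per mouse. Treated mice at 48 h were the deepest, with at least 8108050 UMIs. The filter on mitochondrial UMIs removed 3114 cells of the smaller experiment, against 350 of the larger. Libraries shared between 0 and 94 cell barcodes. The sum of 8 GC B cell markers lay between 1961 and 2501 CPM (the UMIs of a gene, scaled so that every sum of cells has the same total) in every mouse of the time course. Within that sum, single markers moved both ways, with 2 of 8 higher and 4 lower in treated mice at 48 h. At 72 h, 2 of 8 were higher and 1 lower. Of the 7 markers of follicular dendritic cells, *Col6a1* was at 0 throughout, and the sum of the list did not exceed 5.80 CPM in any mouse. In each sum over the cells of a mouse, fewer cells of a type and less RNA per cell cannot be told apart.

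*Cr2* lies on the minus strand of chromosome 1 (GRCm39, 194819119 to 194859091), next to *Cr1l* on the same strand (194777603 to 194813894). *Cd55* lies on chromosome 1 as well (130366469 to 130390926, minus strand), *Cd59a* on chromosome 2 (103926132 to 103947029, plus strand) and *Cd81* on chromosome 7 (142606314 to 142621672, plus strand), and all 5 are protein-coding. The counts hold 1 value per gene, so that CR1 and CR2 are not separated. *Cd55* shares 6.46% of its stretches of 50 bases with its neighbour *Cd55b*, and *Cd59a* shares 5.36% with *Cd59b*, so that counts from these stretches are uncertain. *Cr2* shared 0 with *Cr1l*.

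The promoter of *Cr2* is shown because *Cr2* had the largest fitted difference between the 2 treated groups among the members. Of the 250 bases before the RefSeq start site, a run of 186 lies outside annotated exons and adjoins the annotated gene. The run was taken from the table of GRCm38.p6 and placed by exact match on GRCm39 (chr1:194859092-194859277, minus strand). It is printed 5′ to 3′ with a match to the NF-kB motif (GGGA, 4 free bases and CC) in capitals.
Cr2 promoter: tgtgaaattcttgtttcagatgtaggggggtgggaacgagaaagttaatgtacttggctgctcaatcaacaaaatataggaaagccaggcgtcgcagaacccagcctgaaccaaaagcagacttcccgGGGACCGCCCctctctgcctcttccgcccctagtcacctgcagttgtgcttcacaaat
Motifs were counted on either strand in the 250 bases before the start site of 32851 RefSeq promoters and of the members, and the run shown for *Cr2* is the part of its window outside annotated exons. The NF-kB letters stand in 17.6% of these windows, with 1 match at *Cr2* and 1 at *Cd55*. The window of *Cd55* lies wholly within annotated exons of that gene. The E-box letters CANNTG were found 3 times in the window of *Cr2* and in 66.2% of windows, and the matches are a description of the letters alone.

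*Cr2*, the receptor of the group, had overlapping levels in the untreated groups and lay lower in treated mice at 48 h. At 0 h its level ranged from 48.4 to 130 CPM over 9 mice (median 102). In untreated mice it was 89.5 to 121 CPM at 48 h (median 95.9, 6 mice) and 65.0 to 152 CPM at 72 h (median 107, 8 mice). The 3 untreated groups overlapped widely.

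In treated mice, *Cr2* was 22.5 to 57.2 CPM at 48 h (median 36.95, 9 mice) and 65.1 to 118 CPM at 72 h (median 84.1, 7 mice). All 9 treated mice lay below all 6 untreated mice at 48 h, as for 4.79% of 10270 genes, and all 7 treated mice at 72 h lay above all 9 treated mice at 48 h, as for 4.53% of genes. The groups at 72 h overlapped.

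*Cd55*, the regulator that speeds the decay of C3 convertases, was low in treated mice at both times. At 0 h it was 18.2 to 43.8 CPM (median 28.9). In untreated mice it was 14.9 to 24.1 CPM at 48 h (median 19.1) and 17.5 to 32.3 CPM at 72 h (median 21.0). The treated mice had 5.22 to 9.60 CPM at 48 h (median 6.78) and 7.28 to 14.2 CPM at 72 h (median 10.4).

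Treated mice were below every untreated mouse of the same time for *Cd55*, at 48 h (4.79% of genes) and at 72 h (0.214% of genes). The depth behind these levels is small, between 21 and 173 *Cd55* UMIs per mouse.

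**Figure D1:**
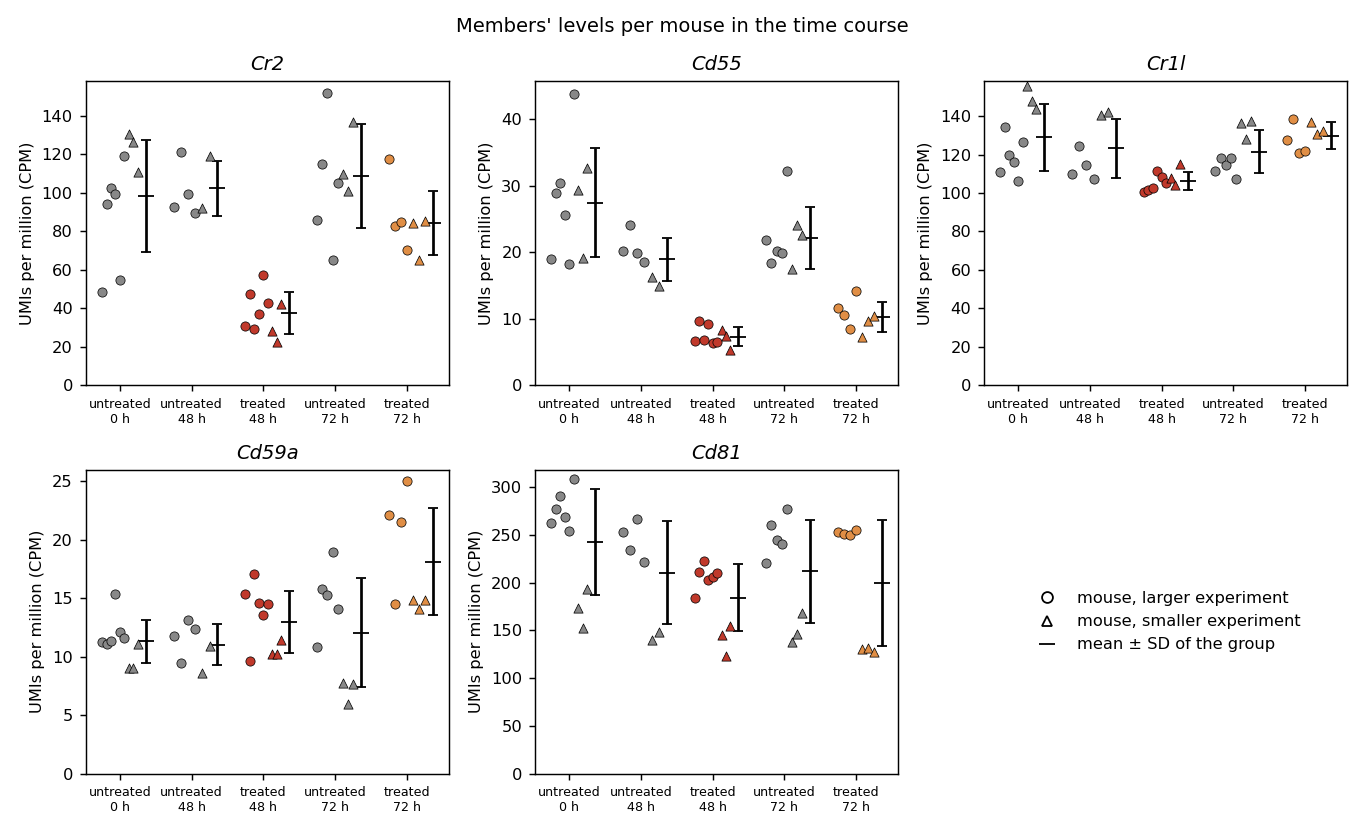
Level of each of the 5 genes in CPM (y axis from 0) in every mouse of the 5 time-course groups. Circles are mice of the larger and triangles of the smaller experiment, and the bar and line are the mean ± SD of a group. *Cr2* and *Cd55* are low in all 9 treated mice at 48 h, *Cd55* also in all 7 at 72 h, and *Cd81* follows the experiment.

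*Cr1l*, *Cd59a* and *Cd81* differed less between treated and untreated mice at 48 h. *Cr1l* was 123 ± 15.4 CPM in untreated mice and 106 ± 4.77 in treated mice at 48 h (SD, n = 6 and 9), and 122 ± 11.4 and 130 ± 6.91 at 72 h (SD, n = 8 and 7). *Cd59a* was 11.03 ± 1.75 and 13.0 ± 2.64 CPM at 48 h, and 12.04 ± 4.66 and 18.1 ± 4.58 at 72 h, in the same order and numbers. *Cd81* was 211 ± 53.7 and 184 ± 35.0 CPM at 48 h, and 212 ± 53.7 and 200 ± 65.7 at 72 h.

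The spread of *Cd81* came with the experiment. Untreated mice at 72 h had 220 to 277 CPM of *Cd81* in the larger and 138 to 168 CPM in the smaller experiment, and treated mice had 250 to 255 and 127 to 132 CPM. The fits below hold a term for the experiment.

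The order of the group means was untreated 72 h, untreated 48 h, 0 h, treated 72 h and treated 48 h for *Cr2*, where only the last step, between the treated groups, separated all mice. For *Cd55*, the order was 0 h, untreated 72 h, untreated 48 h, treated 72 h and treated 48 h. Among these neighbouring steps, only that from untreated 48 h to treated 72 h separated the ranges. This step crosses days and uses mice of the contrast that chose the members, and its share over all genes was not computed. Neighbouring groups overlapped at each step for *Cr1l*, *Cd59a* and *Cd81*.

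At 48 h, the contrast that chose the members, the log2 fold change of treated over untreated mice was -1.39 ± 0.17 (SE) for *Cr2* and -1.31 ± 0.15 for *Cd55*, the 36th and 39th lowest of 10270 genes tested. *Cr1l* stood at -0.15 ± 0.05, *Cd81* at -0.11 ± 0.06 and *Cd59a* at 0.29 ± 0.12. Over all genes, 47.3% were called at 48 h, and 4.79% had all treated mice below all untreated mice. Nothing is read from the members against these shares, since the rule used this contrast.

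Other measures moved with the treated mice at 48 h. G1 cells made up 20.0% ± 3.42 of the treated and 50.9% ± 5.56 of the untreated cells (SD, n = 9 and 6 mice). The sum of 10 light-zone (LZ) genes was 594 to 730 CPM in treated and 1060 to 1180 CPM in untreated mice, and 8 of the 10 were lower. T cell markers summed to 0.377 to 4.51 CPM in treated and 5.77 to 9.59 CPM in untreated mice, and all 3 that could be tested were lower. Markers of naive or memory B cells summed to 40.4 to 80.5 and 62.0 to 142 CPM, and 3 of 8 were lower. Plasma cell markers summed to 1189.9 to 2001 and 774 to 1511 CPM, with 1 of 5 higher and 1 lower. Within that sum, *Jchain* alone had 1055 to 1825 and 673 to 1294 CPM, and *Prdm1* 0.978 to 6.17 and 0 to 10.96 CPM. The part of these measures in the values of the members was not tested.

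Within cells called G1, S and G2M by their transcripts, the log2 fold change of *Cr2* at 48 h was -1.07 ± 0.17, -1.40 ± 0.19 and -1.06 ± 0.18 (SE). For *Cd55* the values were -0.26 ± 0.20, -0.54 ± 0.26 and -1.46 ± 0.22, and for *Cd59a* 0.77 ± 0.16, 0.67 ± 0.18 and 0.07 ± 0.19. These values come from the contrast that chose the members and are a description. The differences between phases were not tested.

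Between 48 h and 72 h in treated mice, the log2 change was 1.11 ± 0.18 for *Cr2* and 0.41 ± 0.17 for *Cd55*. It was 0.46 ± 0.11 for *Cd59a*, 0.20 ± 0.05 for *Cr1l* and 0.07 ± 0.06 for *Cd81*. *Cr2* and *Cr1l* were higher in all 7 mice at 72 h than in all 9 at 48 h, as were 4.53% of genes. These mice share the 48 h contrast, and no test was made.

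The differences at 72 h were not the values on which the members were selected, although they were known when the members were chosen, and they were tested (edgeR quasi-likelihood test with Benjamini-Hochberg adjustment over all genes, threshold 0.05). *Cd55* was lower in treated than in untreated mice (log2 fold change -1.12 ± 0.17, adjusted p = 9.92e-06), with all 7 treated mice below all 8 untreated mice, as for 0.214% of genes. *Cd59a* was higher (0.67 ± 0.13, adjusted p = 0.000517), with all 7 treated mice above the untreated median and 3 of them above every untreated mouse. 1 of the 5 members was thus called lower and 1 higher, where 8.66% of all genes were called.

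*Cr2* did not pass the test at 72 h (-0.36 ± 0.18, adjusted p = 0.216), although 6 of the 7 treated mice lay below the untreated median. Neither did *Cr1l* (0.09 ± 0.05, adjusted p = 0.288) or *Cd81* (-0.07 ± 0.06, adjusted p = 0.624). For *Cr2*, 1 treated mouse of the larger experiment had 118 CPM and the other 6 had at most 85.1, and without it the value was -0.49, still short of the threshold. With cells thinned to 2871 UMIs, the fall of *Cr2* passed (-0.45, adjusted p = 0.0445), and without the term for the experiment the rise of *Cd59a* did not (0.64, adjusted p = 0.0783).

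The interaction of treatment and experiment at 72 h was called for 0 of the 5 members and 2 genes in all (0.019%), with 702 genes at an unadjusted p under 0.05. *Cd81* gave an interaction of -0.28 ± 0.12 (adjusted p = 0.658) and *Cr1l* -0.19 ± 0.09 (adjusted p = 0.722). Markers of naive or memory B cells summed to 41.9 to 62.3 CPM in treated and 43.5 to 139 CPM in untreated mice at 72 h, with 3 of 8 lower and 0 higher. T cell markers, of which 5 of 6 were measured, summed to at most 6.29 and 17.3 CPM in these groups, with 0 of 3 tested called. Plasma cell markers summed to 893 to 1246 CPM in treated and 1040.2 to 1441 CPM in untreated mice, with 0 of 5 higher and 1 lower. Within that sum, *Jchain* alone had 782 to 1118 and 885 to 1221 CPM, and *Prdm1* 0 to 1.76 and 0.912 to 16.1 CPM. The part of these lists in the fall of *Cd55* was not tested.

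**Figure D2:**
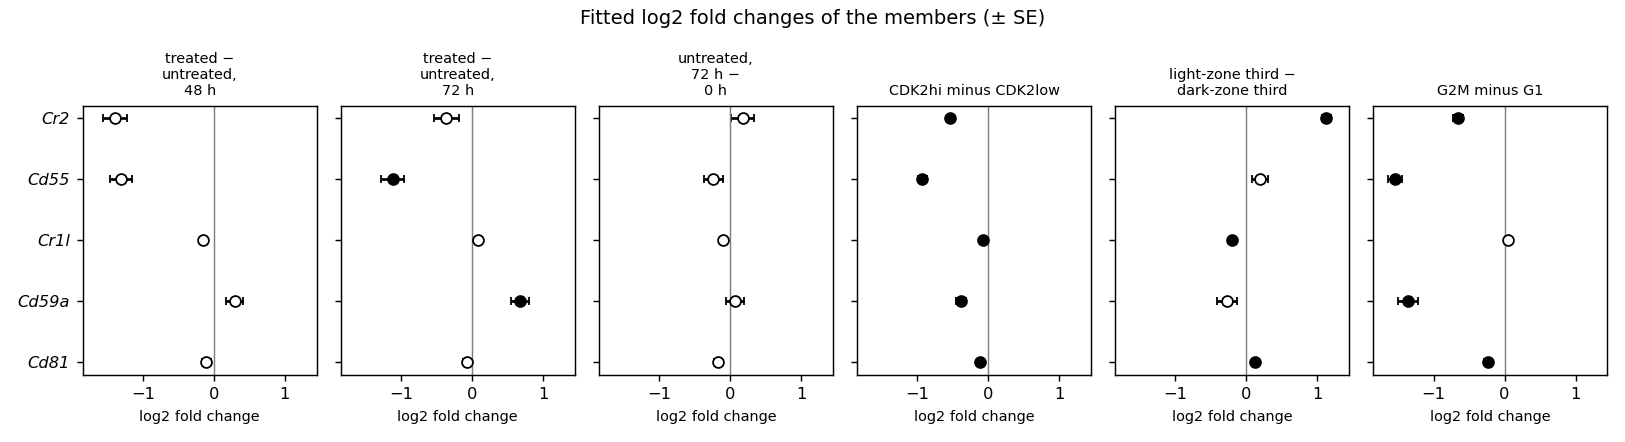
Log2 fold change ± SE (x axis) of the 5 genes in 6 comparisons, with 0 as no difference. Filled circles have an adjusted p under 0.05 (edgeR), and the values at 48 h are open because no test was made there. *Cd55* is below 0 at 48 h and at 72 h, and *Cr2* returns towards 0 at 72 h.

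Within phases at 72 h, *Cd55* was lower in G1 cells (-1.29 ± 0.20, adjusted p = 1.38e-05) and in G2M cells (-1.40 ± 0.28, adjusted p = 0.00137). *Cd59a* was higher in G1 cells (0.47 ± 0.15, adjusted p = 0.0395) and in G2M cells (1.06 ± 0.21, adjusted p = 0.00114). In S cells, *Cd55* was at -0.64 ± 0.29 (adjusted p = 0.2375) and *Cd59a* at 0.52 ± 0.20 (adjusted p = 0.142), and neither passed the edgeR test. *Cr2* was lower in G1 cells (-0.73 ± 0.15, adjusted p = 0.00136), with values of -0.02 ± 0.18 in S and -0.25 ± 0.19 in G2M cells. Whether the phases differ from each other was not tested.

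Called were 3 of 5 members in G1, 2 of 5 in G2M and 0 of 5 in S cells, beside 8.36%, 3.36% and 4.35% of all genes. The share of G1 cells was similar at 72 h, 46.3% ± 8.75 in treated and 48.1% ± 6.89 in untreated mice (SD, n = 7 and 8). In G1 cells, *Cd55* was 9.79 to 26.4 CPM in treated and 34.3 to 59.1 CPM in untreated mice, so that all 7 treated mice lay below all 8 untreated mice, as for 0.203% of genes. As few as 4 *Cd55* UMIs stood behind a treated mouse in G1 cells, and 3 in S and in G2M cells.

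Untreated mice of day 7 and day 10 showed how the genes moved without treatment. Of the 5 members, 0 were called, beside 3.95% of all genes. *Cd81* came nearest (-0.17 ± 0.06, adjusted p = 0.0968), and *Cd55* was at -0.23 ± 0.13 (adjusted p = 0.354) and *Cr2* at 0.18 ± 0.16 (adjusted p = 0.63). Untreated mice at 48 h, which the choice of members used, stood at -0.45 ± 0.14 for *Cd55* and 0.09 ± 0.17 for *Cr2* against 0 h.

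Phases of the cell cycle were compared within the 17 untreated mice of days 7 and 10, with the mouse as a block. *Cd55* had a mean of 48.4 ± 10.7 CPM in G1 and 14.9 ± 4.93 CPM in G2M cells (SD, n = 17 mice). *Cd59a* had 18.1 ± 4.96 and 6.75 ± 2.44 CPM, and *Cr2* had 149 ± 47.8 and 90.6 ± 28.2 CPM. All 3 were lower in G2M cells in each of the 17 mice, as were 13.2% of genes.

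The log2 difference of G2M from G1 was -1.54 ± 0.10 for *Cd55* (adjusted p = 3.03e-17), -1.36 ± 0.14 for *Cd59a* (adjusted p = 1.66e-11) and -0.65 ± 0.07 for *Cr2* (adjusted p = 9.15e-11). *Cd81* was lower as well (-0.24 ± 0.05, adjusted p = 3.14e-05, 16 of 17 mice). *Cr1l* did not pass the test (0.05 ± 0.05, adjusted p = 0.369), and its sign turned without the TMM scaling (-0.05). In all, 4 of 5 members were called, where 68.8% of all genes were. Without TMM the median of all genes moved from -0.05 to -0.15, and the 4 called members stayed below it. *Cr1l* was lowest in S cells, at -0.49 against G1 (adjusted p = 3.67e-12).

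**Figure D3:**
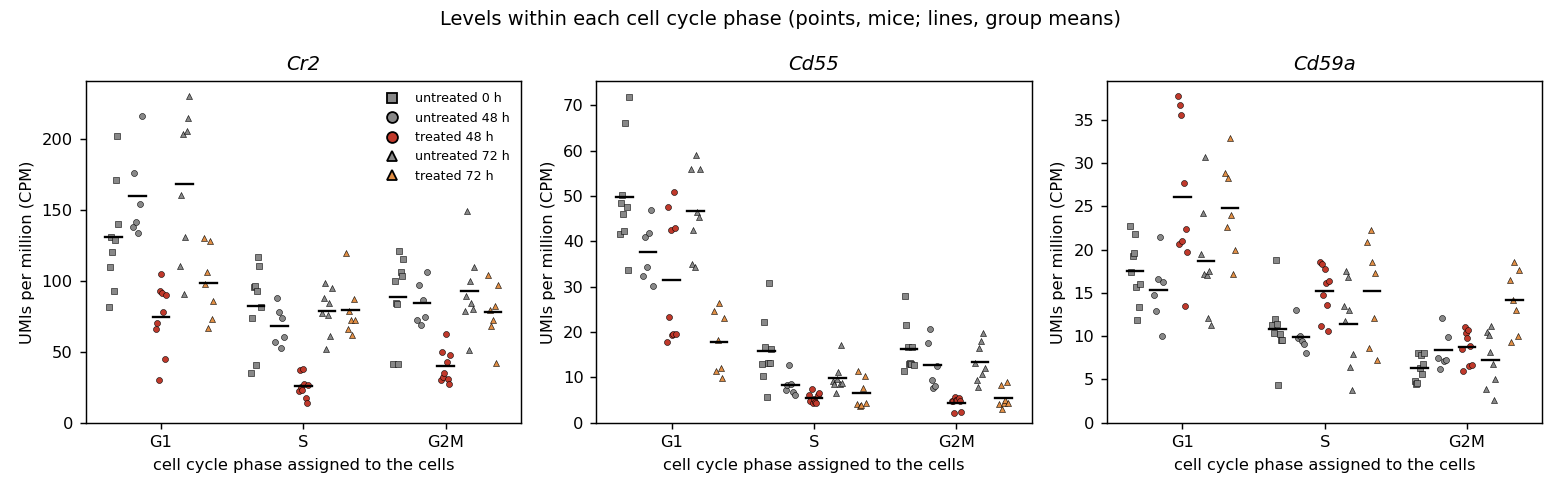
Levels of *Cr2*, *Cd55* and *Cd59a* in CPM (y axis from 0) in G1, S and G2M cells of each mouse, for the 5 time-course groups. Points are mice and lines are the mean of a group. The mean of each gene is highest in G1 cells in all 5 groups.

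The cells of the same 17 mice were also divided by a score, the mean of 10 LZ genes minus that of 7 dark-zone (DZ) genes, and the highest tertile of each mouse was compared with the lowest. No member is in these lists. *Cr2* had 148 ± 41.6 CPM in the LZ tertile and 68.4 ± 20.8 CPM in the DZ tertile (SD, n = 17 mice), and was higher in the LZ tertile in 17 of 17 mice, as were 7.51% of genes. The log2 difference was 1.12 ± 0.07 (adjusted p = 1.25e-17). In G1 cells alone, *Cr2* had 196 ± 68.4 and 82.8 ± 33.9 CPM, again higher in 17 of 17 mice.

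The other 4 genes gave smaller fitted differences in all cells. *Cr1l* was lower in the LZ tertile (-0.20 ± 0.05, adjusted p = 0.000417, lower in 15 of 17 mice), and *Cd81* was higher (0.12 ± 0.04, adjusted p = 0.00924, higher in 13 of 17 mice). Neither passed the test in G1 cells alone (-0.08 and 0.08, adjusted p = 0.358 and 0.366). *Cd55* (0.19 ± 0.12, adjusted p = 0.157) and *Cd59a* (-0.28 ± 0.14, adjusted p = 0.088) did not pass in all cells, and *Cd59a* passed in G1 cells (-0.53, adjusted p = 0.0308). In all, 3 of 5 members were called, where 58.3% of all genes were.

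**Figure D4:**
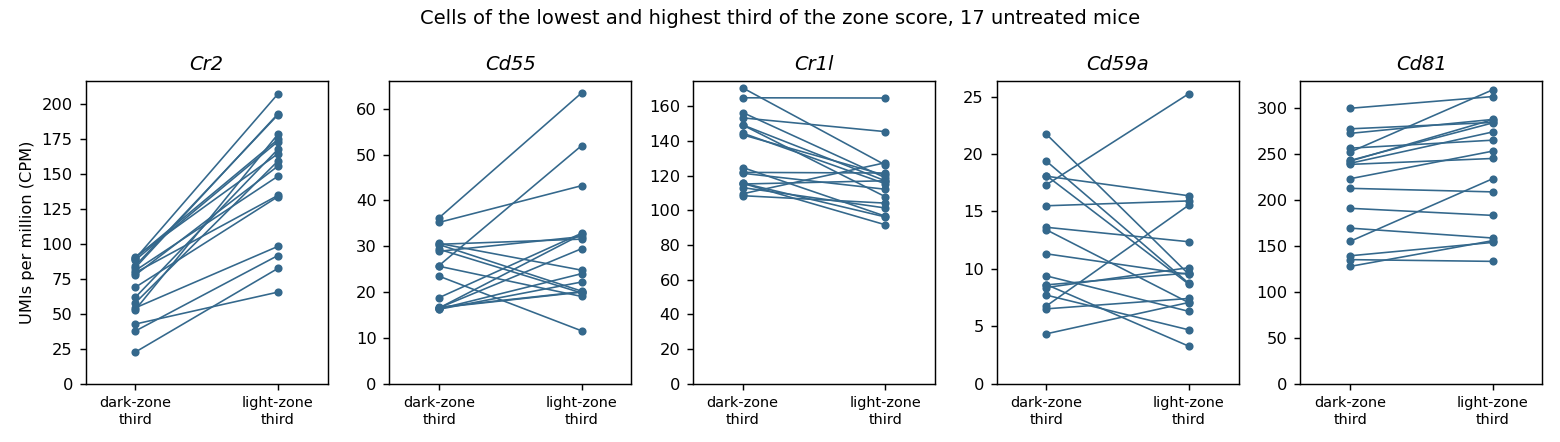
Level of each gene in CPM (y axis from 0) in the DZ and the LZ tertile of the cells of each of 17 untreated mice, joined by a line for each mouse. *Cr2* rises from the DZ to the LZ tertile in all 17 mice, and the lines of the other genes run both ways.

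The phase and the LZ differences were also compared between day 7 and day 10, and 0 of the 5 members gave an interaction past the threshold (edgeR, 0 genes in all for either, with 588 genes for the LZ and 645 for the phase at an unadjusted p under 0.05). For *Cd55*, the LZ difference was larger at day 10 by 0.49 ± 0.22 (adjusted p = 0.759).

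CDK2hi and CDK2low cells were compared within the same 7 treated mice at 72 h. All CDK2hi cells were on 1 library and all CDK2low cells on another, so that CDK2 state and library cannot be told apart, and the errors and p-values hold the spread between mice but none between libraries. In CDK2low cells *Cd55* was 27.1 to 57.3 CPM (median 32.2), and in CDK2hi cells 11.2 to 20.1 CPM (median 16.2). *Cr2* was 59.4 to 125 CPM (median 100.5) and 37.4 to 74.8 CPM (median 55.1). *Cd55* did not overlap between the populations (45.5% of genes did not), and *Cr2* did, although it was lower in the CDK2hi cells of each mouse. *Cr1l* did not overlap either, at 118 to 138 CPM in CDK2low and 103 to 113 CPM in CDK2hi cells, and *Cd59a* and *Cd81* did.

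All 5 genes were lower in CDK2hi cells in 7 of 7 mice, as were 46.5% of genes. The log2 difference was -0.93 ± 0.07 for *Cd55* (adjusted p = 4.06e-12), -0.54 ± 0.05 for *Cr2* (adjusted p = 2.71e-10), -0.38 ± 0.07 for *Cd59a* (adjusted p = 4.66e-05), -0.12 ± 0.03 for *Cd81* (adjusted p = 0.00308) and -0.07 ± 0.03 for *Cr1l* (adjusted p = 0.0261). All 5 members were called, where 73.3% of all genes were.

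Of these, the call of *Cr1l* was lost without any one of mice M1, M3 and M10 (-0.07, -0.06 and -0.07), with DESeq2 (-0.07) and in cells with the B1-8hi pairing alone (-0.07). Without TMM the median of all genes moved from -0.03 to -0.23, and *Cr1l* (-0.28) and *Cd81* (-0.32) stood just below it. G1 cells made up 12.2% to 19.1% of CDK2hi and 52.7% to 63.01% of CDK2low cells of a mouse, and naive or memory markers summed to 31.0 to 43.4 CPM and 58.1 to 172 CPM, with 1 of 8 higher and 5 lower. The 10 LZ genes summed to 650.3 to 816 CPM in CDK2hi and 1195 to 1516 CPM in CDK2low cells, and 9 of the 10 were lower in CDK2hi cells. Macrophage markers summed to 4.21 to 6.53 and 7.82 to 21.6 CPM, and both that could be tested were lower. T cell markers summed to 0.176 to 1.55 and 0.364 to 51.9 CPM, and both that could be tested were lower. Plasma cell markers summed to 881 to 1086 and 850.2 to 1108 CPM, with 1 of 4 higher and 3 lower. Within that sum, *Jchain* alone had 785.5 to 978 and 732 to 965 CPM, and *Prdm1* 0 to 0.294 and 0 to 1.97 CPM. The 8 GC B cell markers summed to 2241 to 2416 and 2477 to 2685 CPM, with 3 of 8 higher and 5 lower. The part of these lists and of the G1 share in the differences was not tested.

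**Figure D5:**
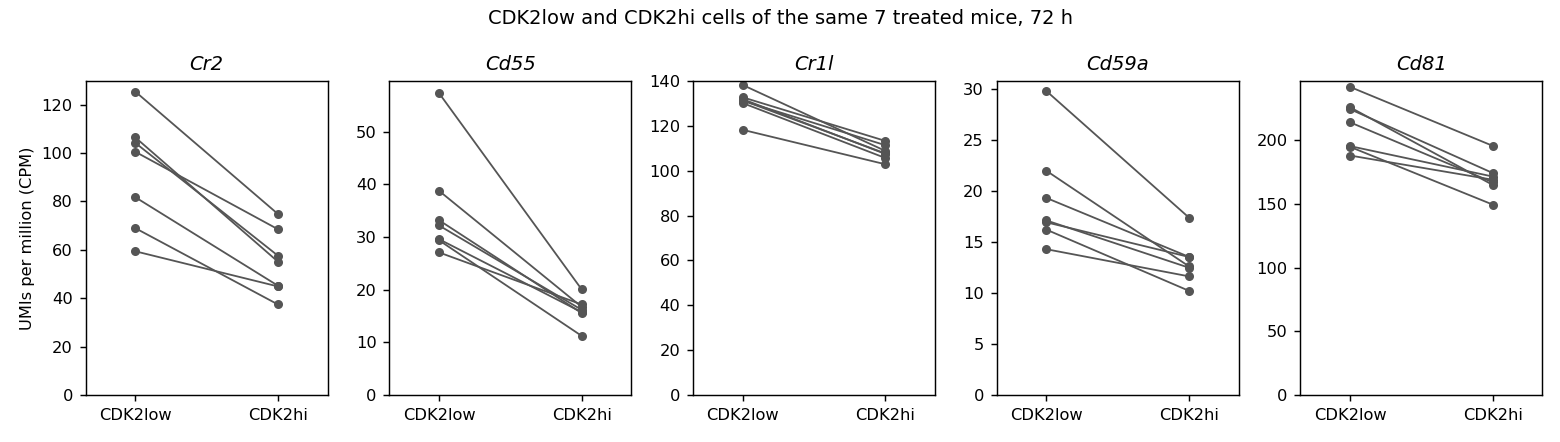
Level of each gene in CPM (y axis from 0) in the CDK2low and CDK2hi cells of 7 treated mice at 72 h, joined by a line for each mouse. Each line falls from CDK2low to CDK2hi for all 5 genes.

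The first experiment had 3 mice per group and fewer UMIs, between 349784 and 4728690 per mouse. *Cr2* was 75.1, 75.5 and 79.9 CPM at day 7, 41.2, 60.0 and 63.8 CPM in untreated mice at day 10 and 52.7, 80.9 and 85.2 CPM in treated mice. *Cd55* was 17.6, 19.9 and 21.9 CPM at day 7, 11.4, 11.5 and 21.4 CPM in untreated and 10.4, 11.2 and 14.3 CPM in treated mice. The treated and untreated mice at day 10 overlapped for both genes.

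No member was called between treated and untreated mice in this set (0 of 5, beside 1.95% of all genes), nor between day 10 and day 7 (0 of 5, beside 0.65%). *Cr2* had a log2 fold change of 0.36 ± 0.16 (adjusted p = 0.352) and *Cd55* of -0.55 ± 0.24 (adjusted p = 0.328). *Cd59a*, called higher at 72 h in the time course, was at 0.08 ± 0.25 here (edgeR, adjusted p = 0.952). The value of *Cr2* passed without treated mouse M10 (0.55, adjusted p = 0.0116), and turned negative in cells with the B1-8hi pairing alone (-0.38). Only 583 of the 10681 kept cells of this set had that pairing, and 3317 genes passed the filter in them. The value of *Cd55* rested on untreated mouse M5, and without it was 0.04. *Cd81* was at -0.24 ± 0.08 (adjusted p = 0.121) and passed without treated mouse M8 (-0.30, adjusted p = 0.0329).

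The wider pathway was described with a list of 64 complement and coreceptor genes other than the members, of which 63 were in the matrices. Only 21 passed the filter in the time course: 13 of 15 coreceptor partners, 2 of 16 regulators, 3 of 9 receptors and 3 of 24 components. *Cfi* and *Serping1*, regulators of the fluid phase, and *C3* and *C4b*, whose fragments the receptors bind, were among those below the filter. At 48 h, the contrast on which the members were selected, their median log2 fold change was -0.21, beside -0.0046 over all genes.

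At 72 h, 3 of the 21 were higher and 1 was lower (median 0.01, beside -0.00067 over all genes), where 8.66% of all genes were called. The tetraspanin *Cd53* (0.21 ± 0.07, adjusted p = 0.0427) and *Pik3ap1*, an adaptor that links receptors to PI3K (0.30 ± 0.06, adjusted p = 0.00182), were higher. The others lay under the level set for naming genes and are given after their values were seen. These were *Cd59b*, the paralogue of *Cd59a*, which was higher (0.55 ± 0.17, adjusted p = 0.0392), and *Ifitm3*, an interferon-induced membrane protein gene, which was lower (-1.68 ± 0.55, adjusted p = 0.0492). *Cd59b* had 9.49 ± 1.76 CPM in treated and 6.71 ± 1.52 CPM in untreated mice (SD, n = 7 and 8). *Ifitm3* had 3.10 ± 2.03 CPM (range 1.32 to 7.30) in the treated and 10.97 ± 11.1 CPM (range 1.75 to 29.5) in the untreated mice.

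Between untreated mice of day 10 and day 7, 1 of the 21 was called, where 3.95% of all genes were. This was the tetraspanin *Cd9*, which was lower (-0.85 ± 0.20, adjusted p = 0.00563) and is also named after its value was seen. In the LZ tertile 11 of 19 were higher and 0 lower (median 0.24, beside 0.01 over all genes), where 58.3% of all genes were called. These included *Cfp*, which encodes properdin (3.78 ± 0.14, adjusted p = 1.11e-23), *Fcer2a*, which encodes CD23, a ligand of CR2 in humans (2.07 ± 0.06, adjusted p = 1.37e-27), *Cd82* (1.17 ± 0.06, adjusted p = 4.91e-19) and *C1qbp*, whose product binds the head of C1q (1.01 ± 0.07, adjusted p = 1.79e-14). *Cd37*, *Cd53*, *Vav1*, *Pik3ap1*, *Itgb2* and *Ifitm3* were higher as well, with values from 0.21 to 0.81.

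In G2M against G1 cells, 2 of 20 were higher and 15 lower (median -0.47, beside -0.05 over all genes), where 68.8% of all genes were called. *C1qbp* rose (0.67 ± 0.09, adjusted p = 8.82e-09), and *Cfp* (-1.65 ± 0.12, adjusted p = 1.2e-15), *Fcer2a* (-1.42 ± 0.05, adjusted p = 1.75e-26) and *Cd59b* (-1.14 ± 0.17, adjusted p = 2.64e-07) fell. The kinase gene *Lyn* (-0.82), *Itgb2* (-0.55), *Cd37* (-0.53), *Cd53* (-0.49) and *Cd46* (-0.49) fell as well, as did *Ifitm3*, *Cd82*, *Pik3ap1*, *Pik3r1*, *Vav1* and *Pik3cd*, by values from -0.76 to -0.12.

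In CDK2hi against CDK2low cells, 5 of 21 were higher and 15 lower (median -0.43, beside -0.03 over all genes), where 73.3% of all genes were called. *Fcer2a* was lowest (-1.37 ± 0.05, adjusted p = 4.04e-19), followed by *Cfp* (-1.08 ± 0.10, adjusted p = 3.16e-10), *Lyn* (-0.71 ± 0.02, adjusted p = 4.45e-19) and *Cd59b* (-0.70 ± 0.09, adjusted p = 2.79e-07). *Cd46* (-0.58), *Cd53* (-0.51), *Cd37* (-0.47), *Pik3ap1* (-0.47), *Itgb2* (-0.43), *Cd82* (-0.39), *Pik3r1* (-0.32), *Vav1* (-0.26) and *Pik3cd* (-0.09) were lower, and *C1qbp* was higher (0.46 ± 0.03, adjusted p = 6.75e-12).

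The genes whose levels ran most like each member were named from 39 time-course mice by Pearson's r of log2 CPM, centred within experiment, over genes with a mean log2 CPM above 4. These mice include those used to choose the members and fall into 5 groups, so that r describes the groups as much as the mice. For *Cr2* they were *Tespa1* (0.91), *Arid3b* (0.91) and *Icosl* (0.90), which encodes the ligand of ICOS. For *Cd55* they were the transcription factor *Foxp1* (0.94), the antiproliferative gene *Btg2* (0.91) and *Fcmr*, the receptor of IgM (0.91). *Cr2* and *Cd55* themselves had an r of 0.71. By this r, *Cd55* ranked 479th of 6828 genes for *Cr2*, and *Cr2* ranked 267th for *Cd55*.

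For *Cr1l* the leading genes were *Ptprcap* (0.83), *Stap1* (0.83) and *Cd180* (0.81), and for *Cd81* *Fcrla* (0.87), *Lsp1* (0.86) and *Ier5* (0.78). The highest values for *Cd59a* were lower, with *Phf6* (0.68), *Emid1* (0.65) and *Arhgap8* (0.65), and its r with *Cd55* was -0.53.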

How the data were processed

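The authors deposited UMI counts per gene and cell, and per hashtag and cell, for every pool without normalization. Cell Ranger made them on mm39 (8.0.1 and 7.1.0 in the file headers, 6.0.1 in the submitters' processing notes, which also list Seurat 5.1.0). A further deposited table, of text fields other than counts or scores, lists the mice with their hashtags and groups. Its days 7, 9 and 10 were taken as 0 h, 48 h and 72 h, and C and N as CDK2hi and CDK2low. Hashtags of 2 of the 9 listed reporter mice had no signal, and 1 hashtag with signal in those pools and 1 in the first experiment belonged to no listed mouse.

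HTODemux in Seurat 5.3.0 (positive quantile 0.99) assigned cells to mice. Cells were kept with exactly the hashtags of 1 mouse, at least 200 genes and under 10% mitochondrial UMIs. Cells with hashtags of more mice were removed, doublets within a mouse were not searched for, and no cell was selected on its receptor. Counts were added up per mouse, and per phase (CellCycleScoring), tertile of LZ minus DZ score or pool. Tests used edgeR 4.0.16 under R 4.3.3 with filterByExpr, TMM scaling, the quasi-likelihood test and Benjamini-Hochberg adjustment at 0.05. The time course was 1 fit of all 5 groups that included the experiment. Phase, tertile and CDK2 comparisons had the mouse as a block, since both sums come from the same animal in the authors' list. SE is between mice and includes counting error. Levels are not divided by gene length and are not compared between genes. Deposited receptor contigs served only the B1-8hi alternative, and immunoglobulin heavy-chain transcripts are left out.

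Members and lists were chosen with earlier results of these data known. Named were the members, each list gene past the threshold with a mean log2 CPM above 3 (some of these are not reported here), and the 3 genes most like each member. Alternatives were DESeq2 1.42.0, no filter on counts or on cells, other hashtag calls, thinned cells, B1-8hi pairing only, each experiment alone, no term for the experiment, no block, other fits and mice left out. The scaling without TMM and the mice left out at 72 h were chosen after seeing the data. The edgeR test of treated against untreated mice at 72 h in the time course was tried on simulated counts, and the other steps were not.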

Additional observations from a re-analysis of the deposited data

Results flagged for a closer look

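In 5 of 35 sets of values, the 5 genes in each of 7 groups, one mouse stood far from the others for a member (a gap to the nearest mouse above Dixon's critical value), where chance gives about 1 in 20. The CDK2hi and CDK2low groups hold the same 7 mice, so the sets are not independent. *Cr2* was 118 CPM in 1 treated mouse at 72 h, and the next was 85.1. *Cd55* was 57.3 CPM in the CDK2low cells of mouse M6, with 38.8 as the next, and 32.3 CPM in 1 untreated mouse at 72 h, with 24 as the next. *Cr1l* was 118 CPM in the CDK2low cells of mouse M4, the lowest, with 130 as the next. *Cd59a* was 15.3 CPM in 1 mouse at 0 h, with 12.1 as the next.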

How the results depend on the processing

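The fall of *Cd55* and the rise of *Cd59a* at 72 h, the phase differences of *Cd55*, *Cd59a* and *Cr2*, the LZ difference of *Cr2* and the CDK2 differences of *Cd55*, *Cr2* and *Cd59a* kept their direction and stayed past the threshold under each alternative run, except *Cd59a* at 72 h without the term for the experiment (0.642, adjusted p = 0.0783). Over single mice left out at 72 h, *Cd55* ranged from -1.22 to -1.04, *Cd59a* from 0.611 to 0.752 and *Cr2* from -0.486 to -0.276. Thinned cells gave *Cr2* -0.452 at 72 h (adjusted p = 0.0445). Of the alternative values of tested members, 422 kept direction and side of the threshold, 15 turned sign, 13 lost and 6 gained a call, and beyond construction with fewer mice, cells or UMIs the cause was not tested.

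Some values turned sign. With the smaller experiment alone, they were 0.04 for *Cd81* at 48 h, -0.0247 for *Cr1l* at 72 h, and -0.0602 for *Cr2* and -0.363 for *Cd59a* at day 10 against day 7. The larger experiment alone gave 0.0245 for *Cd81* at 72 h, and no TMM gave -0.0491 for *Cr1l* in G2M. S against G1, listed with the alternatives here, gave -0.492 for *Cr1l*. It compares other cells than G2M against G1 and is not another processing of the same comparison. With the B1-8hi pairing alone, values were -0.0291 for *Cd55* in the LZ, and in the first experiment -0.38 for *Cr2* and -0.404 for *Cr1l* at 72 h and 0.0356 for *Cd81* at day 10 against day 7. In the first experiment, only 583 of 10681 cells had that pairing. Calls were lost for *Cr1l* in CDK2hi cells with the B1-8hi pairing (-0.0663) and with DESeq2 (-0.0724), for *Cd81* in S against G1 (-0.0687), and for *Cr1l* (-0.0826) and *Cd81* (0.0827) in the LZ in G1 cells alone. Calls were gained for *Cd59a* in the LZ in G1 cells alone (-0.532) and with the highest hashtag (-0.315), and for *Cr2* at day 10 against day 7 in the first experiment with no filter (-0.475).

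Without the mouse as a block, the pairing of the sums lost the calls of *Cr1l* (-0.0773) and *Cd81* (-0.123) in CDK2hi cells and of *Cd81* in the LZ (0.138) and in G2M (-0.269), and changed no other call of a member.

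Over single mice left out, *Cr1l* in CDK2hi cells ranged from -0.0845 to -0.0638 and lost its call without M1, M3 or M10. In the first experiment at 72 h, *Cr2* ranged from 0.204 to 0.64 (called without M10), *Cd55* from -0.734 to 0.0426, *Cd59a* from -0.151 to 0.239 and *Cd81* from -0.305 to -0.206 (called without M8), and *Cd59a* ranged from -0.367 to 0.122 at day 10 against day 7.

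Counts of called genes depended more on the settings. At 48 h they were 4855, and 2680 without the term for the experiment, 2149 in the smaller experiment and 3129 in thinned cells. At 72 h they were 889, and 217, 22 and 462 in that order. Between untreated days they were 406, and 77, 3 and 177, and 256 in a fit of only these groups. In G1 cells the LZ count was 3161 instead of 5574. In the first experiment, counts were 177 at 72 h and 59 between days, and 100 and 35 with DESeq2, 279 and 116 with no filter, 27 and 1 with the B1-8hi pairing, and 55 to 235 and 7 to 64 over single mice left out (fewest without M5). The B1-8hi pairing left only 583 of 10681 cells there. *Cd55* and *Cd59a* rest on as few as 21 and 22 UMIs per mouse in the time course, and on as few as 4 and 10 in the first experiment.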
